A study of Homo sapiens with 15 samples.

Results

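NRF2, encoded by NFE2L2, is the transcription factor that controls much of the antioxidant and detoxification response of epithelial cells. Its inhibitor KEAP1 links it to a ubiquitin ligase built on CUL3, so that NRF2 is degraded until oxidants or electrophiles modify KEAP1. Stabilised NRF2 pairs with small MAF proteins at antioxidant response elements and drives genes for quinone reduction, haem breakdown, thioredoxin recycling and glutathione supply, and squamous carcinomas often carry this pathway in an active state. The genes described here were NFE2L2, KEAP1 and 8 of the pathway's target genes, NQO1, HMOX1, TXNRD1, SRXN1, GCLC, GCLM, SLC7A11 and OSGIN1. A probe was taken for a gene when its identifier on the array was one of that gene's RefSeq accessions, which gave 1 probe each for 9 of the 10 genes, out of 19483 genes with a matched probe. OSGIN1 had no matched probe and was not analysed here. NFE2L2 was too dim to be tested, which left 8 genes in the comparison.

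The samples were PE/CA-PJ41 cells, an immortalised line from a human oral squamous cell carcinoma, and the plasmid used for transfection was pCMV6-Neo. CYGB+ cells received the plasmid with the human cytoglobin cDNA and stable clones were selected in G418. By the labels NCE cells (non-cytoglobin expressing, mock) received the empty vector, whereas parts of the paper call the control cells un-transfected, so whether the NCE cells carry the vector and passed through G418 selection is not settled here. Cells spent 24 h in supplemented medium before RNA extraction, and RNA was taken on separate occasions as 3 biological replicates per group. By the study's methods the CYGB+ cells were 1 clone, so a difference between the groups cannot be told apart from a difference between clones. Each NCE replicate was hybridised to 3 arrays and each CYGB+ replicate to 2, giving 15 arrays. The values below are log2 green-channel signals after quantile normalisation, averaged over the arrays of a replicate, and every difference is CYGB+ minus NCE. A gene was called higher or lower when its p from limma, adjusted over all 22832 probes tested, was under 0.05. In bulk RNA of this kind, fewer cells expressing a gene and less RNA per cell cannot be told apart.

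Several features of the arrays bear on all of the values. Slide 1 held 8 NCE arrays, and slide 2 held all 6 CYGB+ arrays and 1 NCE array (array 3 of replicate 1), so slide and group nearly coincided and the only comparison within a slide rests on that 1 NCE array. The slides also differed in brightness. The median green background was 24 to 29 on slide 1 arrays and 37 to 43 on slide 2 arrays. The median green signal before correction was 61 to 76 on slide 1 and 45 to 62.5 on slide 2. The effect of this on dim probes was not tested. One array, CYGB+ replicate 1 array 1, stood apart, with a median correlation to the other arrays of 0.931 against 0.968 to 0.985 for the rest. The transfected gene CYGB, which encodes the haem protein cytoglobin, was well above background on all 15 arrays and its single probe did not separate the groups. It read 11.87, 12.16 and 11.94 in the NCE replicates and 11.36, 12.42 and 11.96 in the CYGB+ replicates, a difference of -0.07 (SE 0.24, adjusted p = 0.871). Where on the transcript this probe lies was not given in the sources used here, so it may not read the transfected cDNA. It read about as high in NCE cells, which by name are non-cytoglobin expressing, and why was not tested. The paper's own checks of cytoglobin in the clones are not reported here. On these arrays the groups rest on the labels alone. The arrays also held a red-channel signal whose sample the labels do not name, and it entered no test. Squamous epithelial markers, among them KRT5, KRT14 and TP63, were well above background on every array for 10 of 10 genes, with 1 (KRT6A) called lower in CYGB+, and their summed signal ran from 88663 to 99133 in NCE and from 84330 to 103591 in CYGB+ replicates. No fibroblast marker (0 of 5) and no endothelial marker (0 of 2) was above background on all arrays, COL3A1, PDGFRB and LUM were above it on none, COL1A1 was above it on 7 of 9 NCE and 6 of 6 CYGB+ arrays and CDH5 on 8 of 9 and 6 of 6, and the summed signals were 326 to 353 in NCE against 332 to 351 in CYGB+ for fibroblast and 149 to 287 against 145 to 161 for endothelium. Of 3 leukocyte markers CD14 alone was above background on all arrays, with sums of 399 to 525 in NCE and 345 to 436 in CYGB+.

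The sequences that link these genes are the antioxidant response elements, whose core is written TGACNNNGC or, more loosely, TGATNNNGC. Both forms were searched on both strands in the 250 bases before each RefSeq transcription start (build GRCh38.p14), and the windows of GCLM and TXNRD1 are shown because they held a match. Each reads 5′ to 3′ on the strand of its gene, with the match in capitals. The GCLM window is chr1:93909431-93909680 on the minus strand. The TXNRD1 windows, for the pair of annotated starts, are chr12:104215529-104215778 and chr12:104286782-104287031 on the plus strand.
GCLM: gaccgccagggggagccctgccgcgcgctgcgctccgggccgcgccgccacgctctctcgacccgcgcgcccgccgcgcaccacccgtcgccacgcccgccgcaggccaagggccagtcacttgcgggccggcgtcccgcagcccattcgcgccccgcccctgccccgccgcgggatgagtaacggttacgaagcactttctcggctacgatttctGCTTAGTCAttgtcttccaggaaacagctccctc
TXNRD1, upstream start: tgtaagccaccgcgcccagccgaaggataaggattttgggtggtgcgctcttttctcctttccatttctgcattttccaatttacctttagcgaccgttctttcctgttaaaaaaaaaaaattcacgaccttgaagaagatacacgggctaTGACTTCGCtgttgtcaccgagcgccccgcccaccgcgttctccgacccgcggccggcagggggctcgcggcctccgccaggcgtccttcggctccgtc
TXNRD1, downstream start: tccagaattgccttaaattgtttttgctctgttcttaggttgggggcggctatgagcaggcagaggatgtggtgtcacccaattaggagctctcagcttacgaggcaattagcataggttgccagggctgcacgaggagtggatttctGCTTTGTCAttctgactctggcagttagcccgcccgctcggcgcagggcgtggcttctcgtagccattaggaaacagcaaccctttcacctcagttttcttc
The GCLM match was TGACTAAGC on the opposite strand and its far end lay 34 bases before the start. The TXNRD1 matches were TGACTTCGC on the gene's strand, 99 bases before the upstream start, and TGACAAAGC on the opposite strand, 102 bases before the downstream start. The AP-1 motifs TGACTCA and TGAGTCA, which an element of this form can contain, were in none of these windows. KEAP1 had 2 matches before its downstream start, while the windows of NFE2L2, NQO1, GCLC, SRXN1 and OSGIN1 held none. HMOX1 and SLC7A11 had no window in the table. In all, 4 of 11 windows of these genes held a match, beside 16.6% of the 35116 windows of all genes. A match is a run of letters and was not tested for binding, and elements outside the window were not searched.

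NQO1, HMOX1 and TXNRD1, classical targets of the pathway, rose in CYGB+ cells by 0.93 to 1.04 on the log2 scale. These sizes and the folds below hold for the main processing and were larger under some alternatives, given at the end. NQO1 reduces quinones, HMOX1 opens haem into biliverdin, iron and carbon monoxide, and TXNRD1 recycles thioredoxin. None of the 8 tested genes was called lower. These 3 of 8 calls stand beside 10.8% of all probes tested that were called, with 5.33% called higher and 5.51% called lower. With the replicate number as a block, 5 of the 8 were higher and 1 was lower, beside 16.7% of all probes called. All 3 genes were well above background on every array, and neither the replicates nor the single arrays of the groups overlapped, which held for 33.4% of all tested probes by replicate and, by array, for 9.85% of the 22398 probes with a value on all 15 arrays.

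NQO1 read 8.28, 8.25 and 8.16 in the NCE replicates and 8.93, 9.31 and 9.25 in the CYGB+ replicates. Its lowest CYGB+ replicate was therefore well clear of the highest NCE replicate, and the groups did not overlap. The difference was 0.93 (SE 0.15), or 1.91-fold, with an adjusted p of 0.00738. Replicate 1 of CYGB+ was the lowest of its group, and it holds the array that stood apart, which read 8.71 against 9.14 on its repeat. Without that array the NQO1 difference was 1.00 (SE 0.11, adjusted p = 0.000871).

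HMOX1 read 7.30, 7.45 and 7.61 in NCE and 8.38, 8.51 and 8.47 in CYGB+ replicates. The CYGB+ replicates lay closer together (SD 0.07) than the NCE replicates (SD 0.16), and every CYGB+ value exceeded every NCE value. The HMOX1 difference was 1.00 (SE 0.14), or 2.00-fold, with an adjusted p of 0.0042. HMOX1 is a gene that NRF2 induces and BACH1 represses at the same elements. The BACH1 values are given with the regulators.

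TXNRD1 read 8.14, 8.21 and 8.19 in NCE and 9.44, 9.17 and 9.05 in CYGB+ replicates. The NCE replicates were almost level (SD 0.03), the CYGB+ replicates spread more (SD 0.20), and the groups did not overlap. Its difference of 1.04 (SE 0.14), or 2.05-fold, had an adjusted p of 0.00465 and was the largest among the 8 tested genes. The highest TXNRD1 value of all, 9.74, came from the array that stood apart, and without it the difference was 0.94 (adjusted p = 0.000942).

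**Figure D1:**
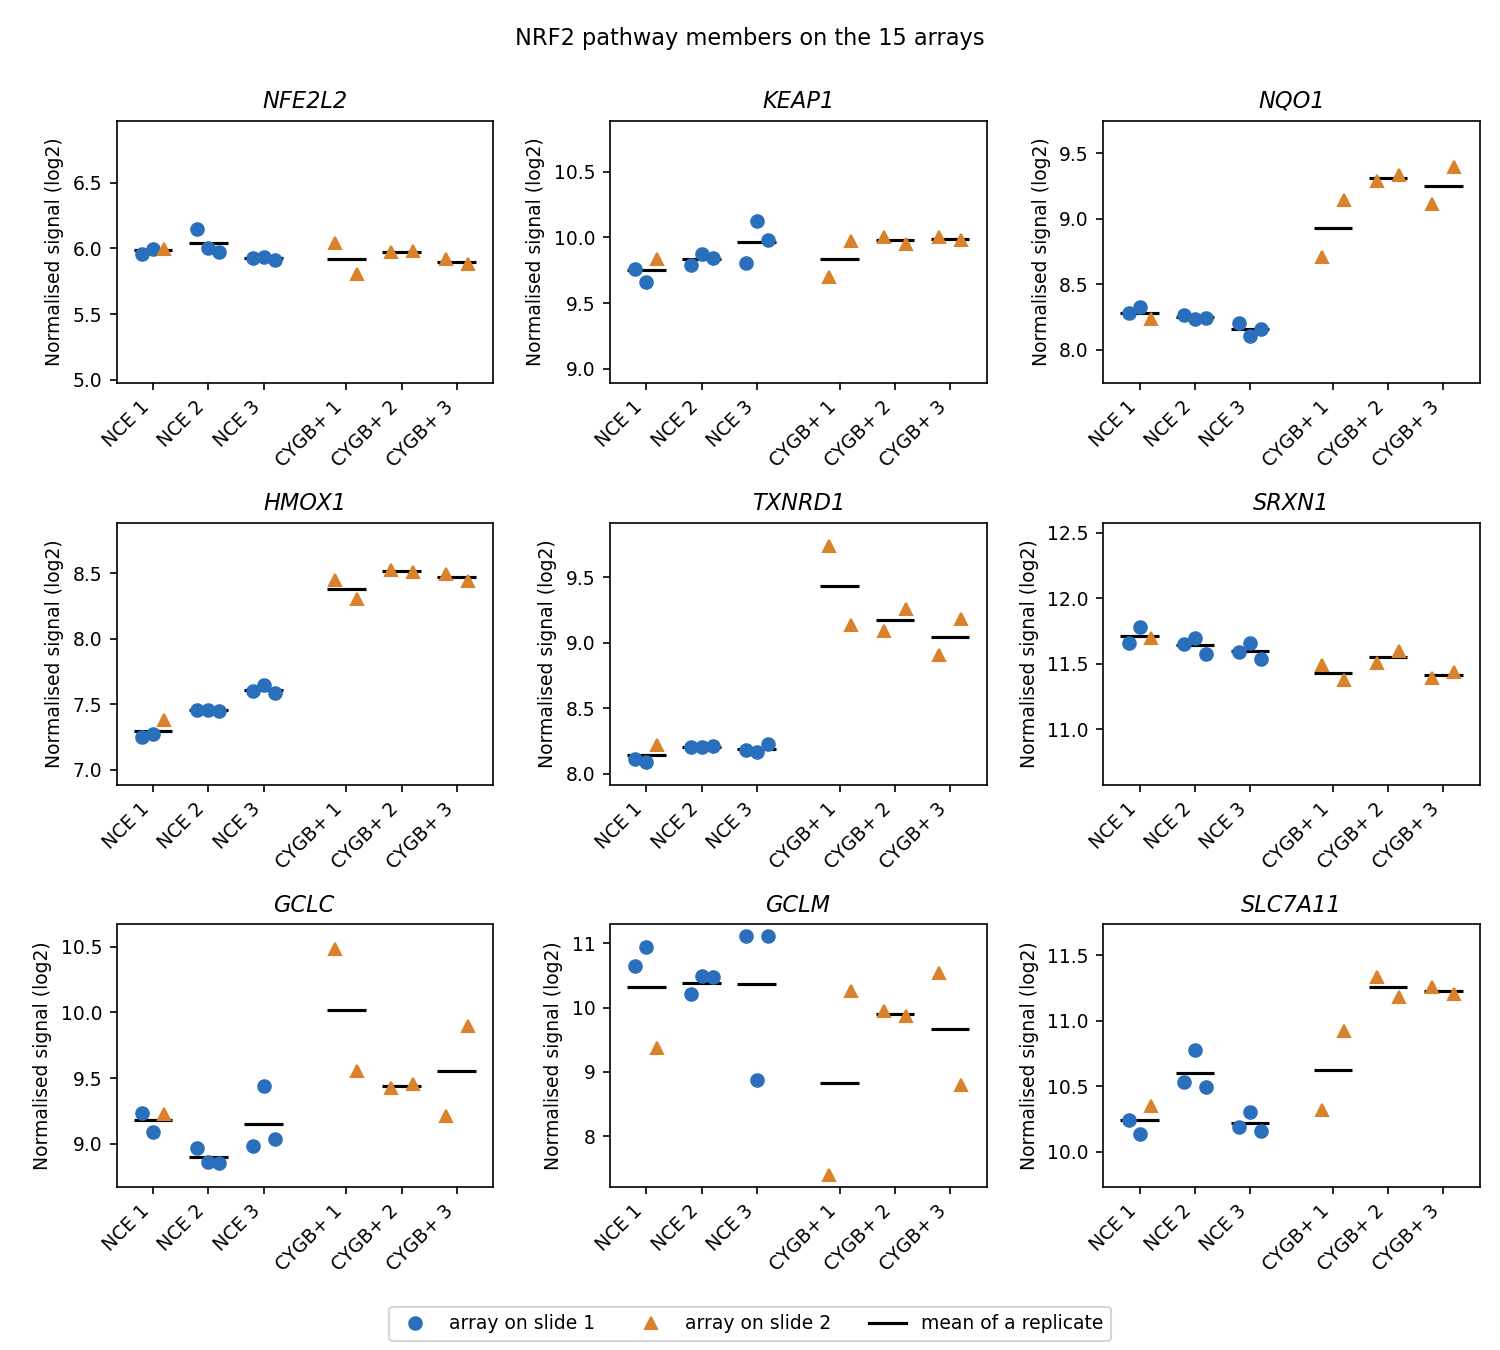
Normalised log2 green signal (y axis of each panel, its own range) of the 9 genes with a probe on the 15 arrays, grouped by biological replicate (x axis); circles are slide 1 arrays, triangles slide 2 arrays and bars replicate means. NQO1, HMOX1 and TXNRD1 separate the groups on every array, and GCLM spreads from 7.40 to 11.11.

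The NQO1, HMOX1 and TXNRD1 differences were about as large within slide 2. Against the 1 NCE array there they were 0.93 (SE 0.28) for NQO1, 1.08 (SE 0.26) for HMOX1 and 1.00 (SE 0.28) for TXNRD1. With a lone NCE sample, which limma takes to vary like the CYGB+ replicates, none of these passed. The limma adjusted p was 0.237 for NQO1, 0.154 for HMOX1 and 0.202 for TXNRD1, and 47 probes of the whole array passed. In a fit over the arrays with slide as a term and the replicate as a random block, all 3 remained called, with adjusted p of 0.0157 for NQO1, 0.00282 for HMOX1 and 0.0217 for TXNRD1, beside 2.79% of probes called in that fit. It took the arrays as units, with 1 correlation of 0.184 between arrays of a replicate for all probes. Repeat arrays thus counted nearly as separate samples, and the adjusted p may be too small. Only the 1 NCE array on slide 2 parts slide from group in this fit, so it does not remove the overlap of the 2.

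The remaining targets supply or use glutathione and peroxiredoxin, and none of them passed the test. SLC7A11, the cystine importer that feeds glutathione synthesis, read 10.24, 10.60 and 10.22 in NCE and 10.62, 11.25 and 11.23 in CYGB+ replicates. The lowest CYGB+ replicate of SLC7A11 and the highest NCE replicate were almost equal, so the groups only just failed to overlap. Its difference was 0.68 (SE 0.20), or 1.60-fold, with an adjusted p of 0.0594. With the replicate number as a block the SLC7A11 adjusted p was 0.0209, without the array that stood apart it was 0.00743 with a difference of 0.78, and with each array scaled to its 75th percentile it was 0.037.

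GCLC and GCLM encode the catalytic and the modifier subunit of glutamate-cysteine ligase, which makes the first step of glutathione synthesis. GCLC read 9.18, 8.90 and 9.15 in NCE and 10.02, 9.44 and 9.55 in CYGB+ replicates, a difference of 0.60 (SE 0.18, 1.51-fold, adjusted p = 0.0638). All CYGB+ replicates of GCLC were above all NCE replicates, although single arrays overlapped. Its adjusted p was 0.0265 with the replicate block, and 0.0299 without the array that stood apart, where the difference was 0.44.

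GCLM, the modifier subunit, read 10.32, 10.39 and 10.36 in NCE and 8.83, 9.91 and 9.67 in CYGB+ replicates. All CYGB+ replicates were below the NCE replicates, with a difference of -0.89 (SE 0.25), an NCE level 1.85-fold that of CYGB+ and an adjusted p of 0.0522. In this fit the 2 subunits had differences of opposite sign, neither past the threshold. The GCLM sign did not hold once slide was considered, which rests on 1 NCE array. The GCLM adjusted p was 0.0177 with the replicate block and 0.0423 with scaling to the 75th percentile. Without the array that stood apart its difference was -0.41 (adjusted p = 0.0849).

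The GCLM difference turned positive once slide was taken into account, but this rests on the 1 NCE array on slide 2. The difference was 0.09 (SE 0.39) within slide 2 and 0.19 (SE 0.96) in the fit with slide as a term. That NCE array, replicate 1 array 3, read 9.375 for GCLM, against 10.65 and 10.94 on the other arrays of its replicate. No direction is therefore given for this gene. The repeat arrays of a replicate also differed more for GCLM than for any other of these genes. CYGB+ replicate 1 read 7.40 on array 1 and 10.26 on array 2, a range of 2.86, while the widest such range was between 0.12 and 0.93 for the other genes with a probe. Over single arrays GCLM ran from 8.87 through a median of 10.49 to 11.11 in NCE, and from 7.40 through 9.91 to 10.53 in CYGB+.

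Low GCLM readings in green went with low readings in red on the same array. The 4 lowest arrays in green were CYGB+ replicate 1 array 1, CYGB+ replicate 3 array 2, NCE replicate 3 array 2 and NCE replicate 1 array 3. The same 4 arrays were the lowest in red, between 8.05 and 9.76, while the other 11 lay between 10.61 and 12.36. They come from both groups and both slides. What sets these readings apart was not tested.

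**Figure D2:**
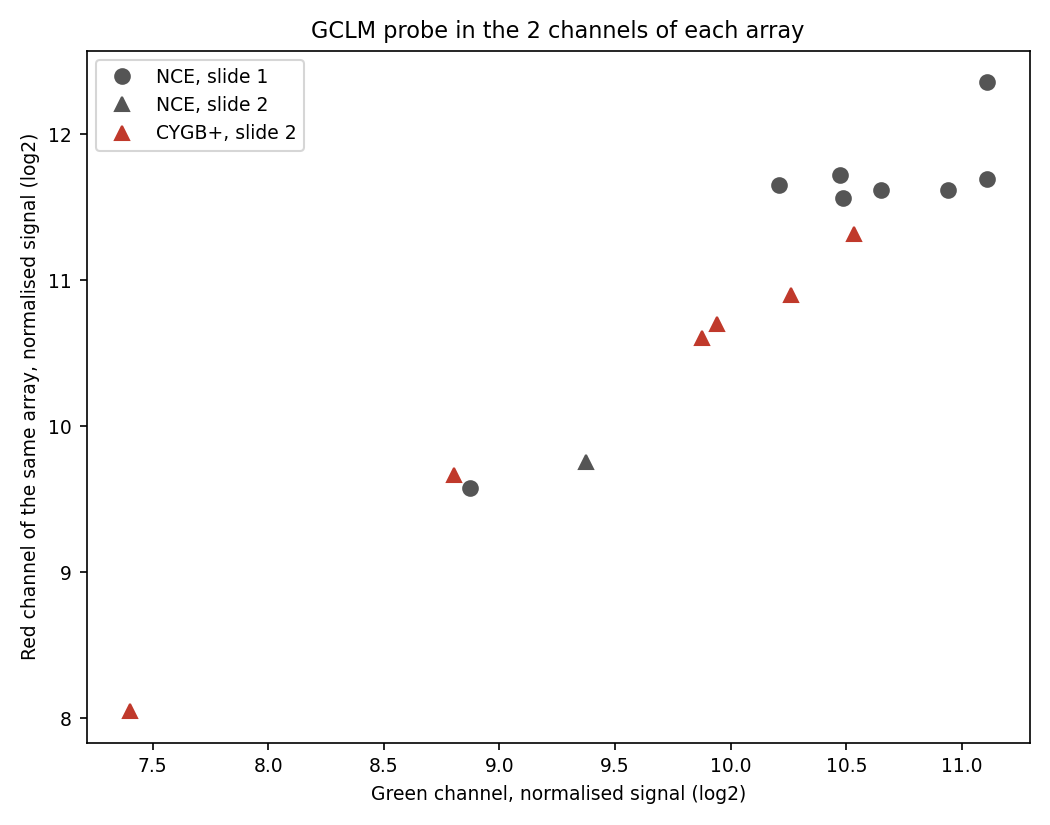
GCLM probe on each of the 15 arrays, normalised log2 green signal (x axis) against normalised log2 red signal of the same array (y axis); symbols mark the slide and colours the group. The 4 arrays under 9.4 in green are also the 4 under 9.8 in red, and they come from NCE and CYGB+.

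SRXN1 encodes sulfiredoxin, which restores over-oxidised peroxiredoxins. It read 11.71, 11.64 and 11.59 in NCE and 11.43, 11.55 and 11.42 in CYGB+ replicates, a difference of -0.18 (SE 0.12, adjusted p = 0.356). The groups did not overlap by replicate but the difference was small, and 49.1% of all probes tested had a larger one.

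The sensor and the factor itself gave no called difference. KEAP1 read 9.75, 9.84 and 9.97 in NCE and 9.84, 9.98 and 9.99 in CYGB+ replicates, which overlapped, and its difference was 0.08 (SE 0.13, adjusted p = 0.709). NFE2L2 read 5.98, 6.04 and 5.92 in NCE and 5.92, 5.98 and 5.90 in CYGB+ replicates. Its probe was well above background on 1 of the 15 arrays, an NCE array, so these values are at the floor of the array and give no fold. With 1 probe, a low level of the transcript cannot be told apart from a probe that reads it poorly. NRF2 is regulated mainly through the stability of its protein, which these arrays do not measure.

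**Figure D3:**
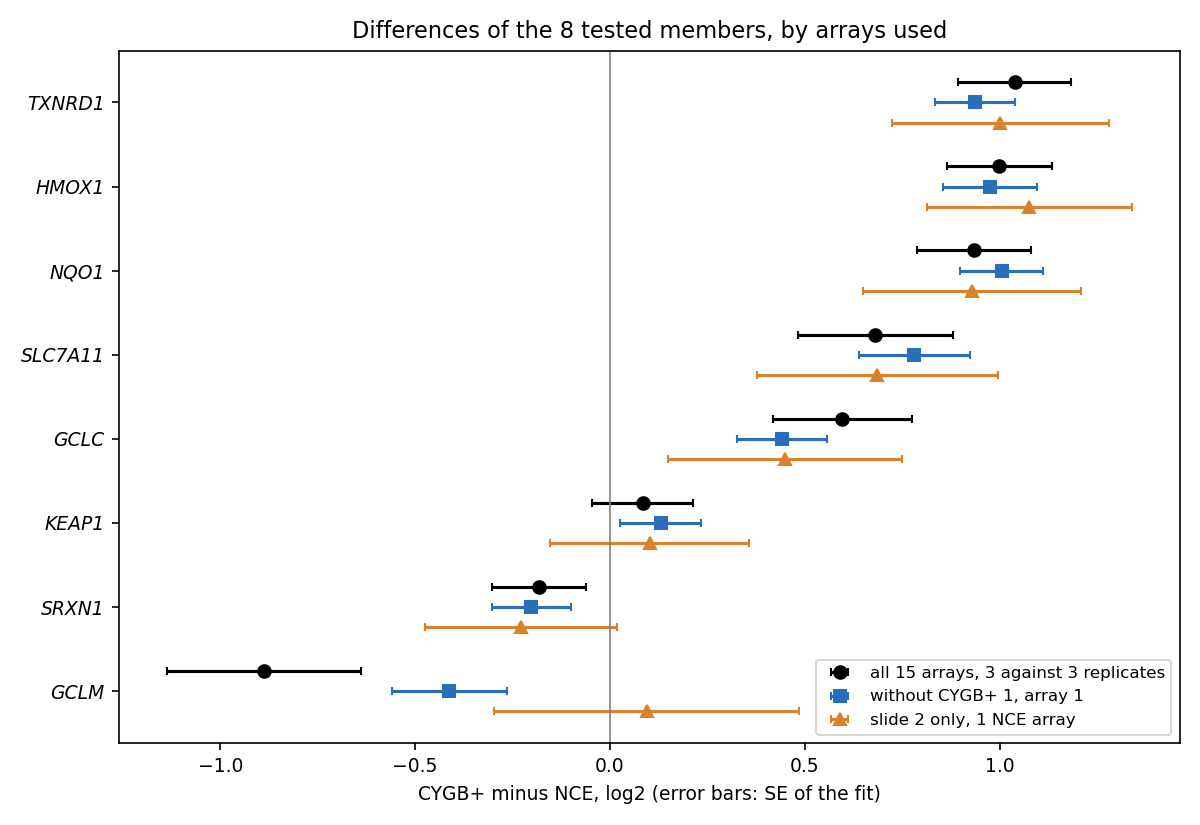
CYGB+ minus NCE difference in log2 signal (x axis, with bars of 1 SE) for the 8 tested genes, from all 15 arrays (black circles), without CYGB+ replicate 1 array 1 (blue squares), and within slide 2 against 1 NCE array (orange triangles). TXNRD1, HMOX1 and NQO1 stay near 1 in each, and GCLM moves from -0.89 through -0.41 to 0.09.

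Set among all probes, NQO1, HMOX1 and TXNRD1 lay far out on the higher side. A larger difference in size was found for 1.31% of the tested probes in the case of TXNRD1, 1.56% for HMOX1 and 2.0% for NQO1. For GCLM it was 2.4%, for SLC7A11 5.76%, for GCLC 8.26% and for KEAP1 72.9%. The median difference of the 8 genes was 0.64, beside 0.001 over all probes tested. Replicates did not overlap for 7 of the 8, beside 33.4% of all probes.

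**Figure D4:**
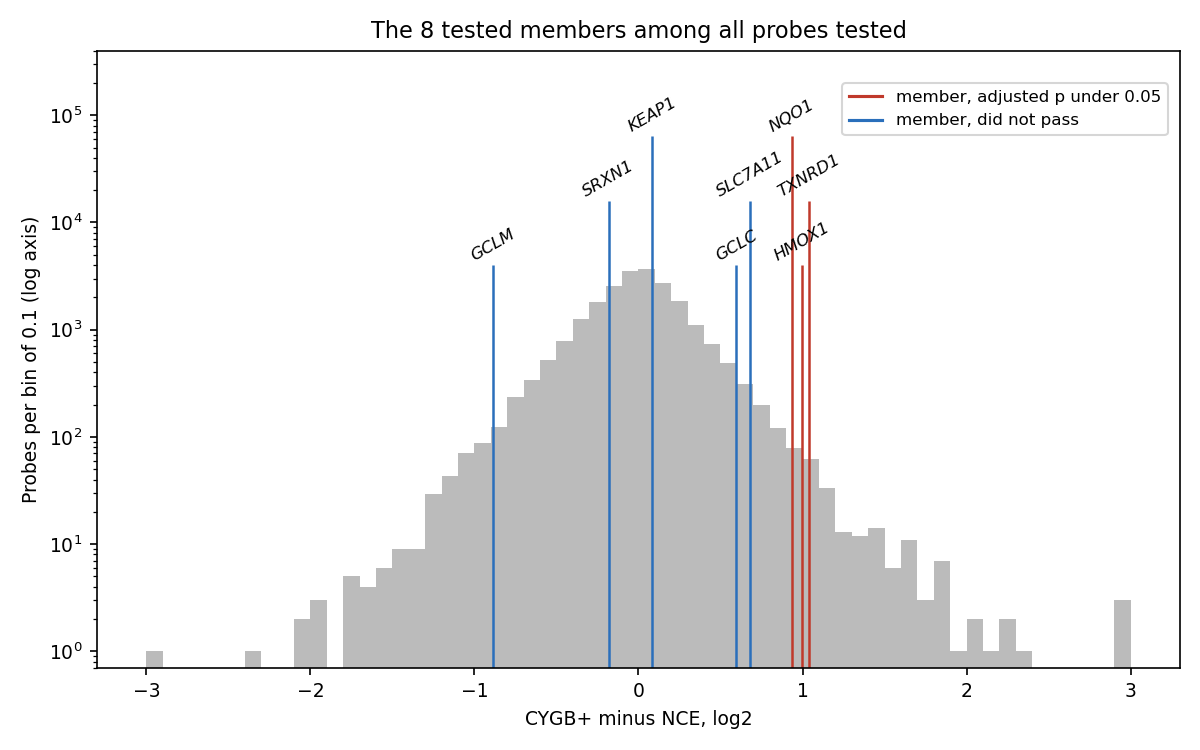
Number of tested probes (y axis, log scale) by CYGB+ minus NCE log2 difference (x axis, bins of 0.1; the outermost bins gather all larger differences), with vertical lines at the 8 tested genes, red where the adjusted p was under 0.05. The 3 called genes lie between 0.93 and 1.04, and the lines differ in height only to keep the names apart.

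Other targets of NRF2 were taken from a list of 45 genes for detoxification, NADPH supply, haem and iron handling and efflux. Of these, 41 had a probe and 39 were tested, with 7 called higher and 5 called lower, beside 5.33% and 5.51% of all probes, and a median difference of 0.18 beside 0.001 over all probes. For genes with several probes the brightest was counted. AKR1C2, GSTA1, TRIM16 and TRIM16L had no matched probe, and GSTA4 and NR0B1 were too dim to be tested. Without the array that stood apart 15 were higher and 6 lower, beside 18.6% of all probes called, and with slide as a term 5 were higher and 1 lower (MGST1 among the former, which was not called without that term), beside 2.79% of all probes called in that fit. All 12 called genes kept their sign within slide 2. That comparison reuses the CYGB+ arrays behind the calls and an NCE array that is part of the NCE mean. How many of all called probes kept their sign was not computed, so this is no separate support.

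GSTM3, a glutathione S-transferase, had the largest difference among these targets. It read 6.16, 6.19 and 6.23 in NCE and 8.04, 8.13 and 8.10 in CYGB+ replicates, a difference of 1.90 (SE 0.10). The groups were far apart, and GSTM3 was well above background on 6 of 6 CYGB+ arrays but on only 1 of 9 NCE arrays. Its NCE values therefore sit close to the floor and no fold is given. GSTM3 entered the test only through its CYGB+ arrays. Its adjusted p is therefore not given. GSTM3 is among the 7 higher calls and among the higher calls without the array that stood apart and with slide as a term. Its place in these counts is no support of its own.

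The aldo-keto reductases AKR1C1 and AKR1C3, which reduce steroids and reactive carbonyls with NADPH, both rose. AKR1C1 read 7.30, 7.46 and 7.22 in NCE and 8.06, 9.38 and 8.74 in CYGB+ replicates on its brighter probe, a difference of 1.40 (SE 0.29, adjusted p = 0.0189), and 1.47 on its other probe. AKR1C1 is nearly identical in sequence to AKR1C2, so its probes may read both. AKR1C3 read 8.02, 7.83 and 8.28 in NCE and 9.16, 9.49 and 9.14 in CYGB+ replicates, a difference of 1.22 (SE 0.17, adjusted p = 0.00438). In both genes every CYGB+ replicate was above every NCE replicate. With slide as a term AKR1C3 was still called (adjusted p = 0.0103) and AKR1C1 was not (adjusted p = 0.219, and 0.0612 on its other probe).

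SQSTM1 encodes p62, an autophagy receptor that binds KEAP1 and is itself a target of NRF2. It read 11.20, 11.06 and 11.12 in NCE and 11.99, 12.84 and 12.71 in CYGB+ replicates, a difference of 1.39 (SE 0.21, 2.62-fold, adjusted p = 0.00674). CYGB+ replicate 1, which holds the array that stood apart, was the lowest of its group but still above all NCE replicates. Within slide 2 the SQSTM1 difference was 1.27, although with slide as a term its adjusted p was 0.132. The carboxylesterase CES1 read 8.40, 8.58 and 9.24 in NCE and 9.60, 9.45 and 10.13 in CYGB+ replicates, a difference of 0.99 (SE 0.25, adjusted p = 0.0383) on its brightest probe and 0.045 (adjusted p = 0.848) on a dimmer one. CES1 was not called with slide as a term (adjusted p = 0.204). The other higher calls were ABCC3, an efflux pump for conjugates (0.81, adjusted p = 0.00863), and PGD, which makes NADPH in the pentose phosphate pathway (0.71, adjusted p = 0.0214).

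The targets called lower were 5 in number. CBR1, a carbonyl reductase, read 10.47, 10.84 and 10.98 in NCE and 9.54, 9.64 and 9.86 in CYGB+ replicates. Its difference was -1.08 (SE 0.17, adjusted p = 0.00708), with no overlap between the groups. The others were TALDO1, an enzyme of the pentose phosphate pathway (-0.86, adjusted p = 0.0132), the biliverdin reductase BLVRB (-0.64, adjusted p = 0.0214), the carbonyl reductase CBR3 (-0.64, adjusted p = 0.036) and the glutathione peroxidase GPX2 (-0.60, adjusted p = 0.0142). PGD and TALDO1, which act in the same pathway, were thus called in opposite directions. Of these 5 genes only BLVRB was called with slide as a term.

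For CYP4F11 and SLC48A1 the probes of a gene disagreed on the call. CYP4F11, a cytochrome P450, differed by 0.68 (adjusted p = 0.0639) on its brighter probe and by 1.16 (adjusted p = 0.0093) on its other probe. SLC48A1, a haem transporter, differed by 0.28 (adjusted p = 0.339) on its brighter probe and by 0.70 (adjusted p = 0.0361) on its other probe. The targets that did not pass included GSR (-0.29), TXN (0.06), PRDX1 (-0.15), FTH1 (0.52) and FTL (0.41), which serve thiol reduction and iron storage.

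Partners and regulators of NRF2 were taken from a list of 22 genes, all with a probe and all tested. Of these, 3 were called higher and 2 lower, beside 5.33% and 5.51% of all probes, with a median difference of -0.02. The small MAF proteins MAFK and MAFF, which bind DNA with NRF2 or with its competitors, were both higher. MAFK read 8.52, 8.49 and 8.57 in NCE and 9.41, 8.91 and 9.11 in CYGB+ replicates, a difference of 0.61 (SE 0.16, adjusted p = 0.0385). MAFF read 8.32, 8.17 and 8.22 in NCE and 9.01, 8.74 and 8.67 in CYGB+ replicates, a difference of 0.57 (SE 0.14, adjusted p = 0.0367), but 0.19 within slide 2. MAFG, the third small MAF, differed by 0.27 and did not pass. FBXW11, a substrate receptor of a ubiquitin ligase that can target NRF2 independently of KEAP1, differed by 0.61 (SE 0.13, adjusted p = 0.0206).

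The transcriptional repressor BACH1, which competes with NRF2 for the same elements, was lower. It read 9.27, 9.71 and 9.69 in NCE and 8.68, 8.40 and 8.67 in CYGB+ replicates, a difference of -0.97 (SE 0.17, adjusted p = 0.0101). No BACH1 replicate overlapped between groups, and within slide 2 the difference was -0.55. NFE2L3, a relative of NRF2 in the same family, read 9.20, 9.13 and 9.40 in NCE and 8.06, 8.02 and 8.14 in CYGB+ replicates, a difference of -1.17 (SE 0.13, adjusted p = 0.00299). NFE2L3 was the only regulator called with slide as a term (adjusted p = 0.00451), and without the array that stood apart 3 regulators were higher and 4 lower, beside 18.6% of all probes called. CUL3, the scaffold of the ligase that KEAP1 serves, differed by 0.20 and RBX1, its RING subunit, by -0.05, and neither passed.

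**Figure D5:**
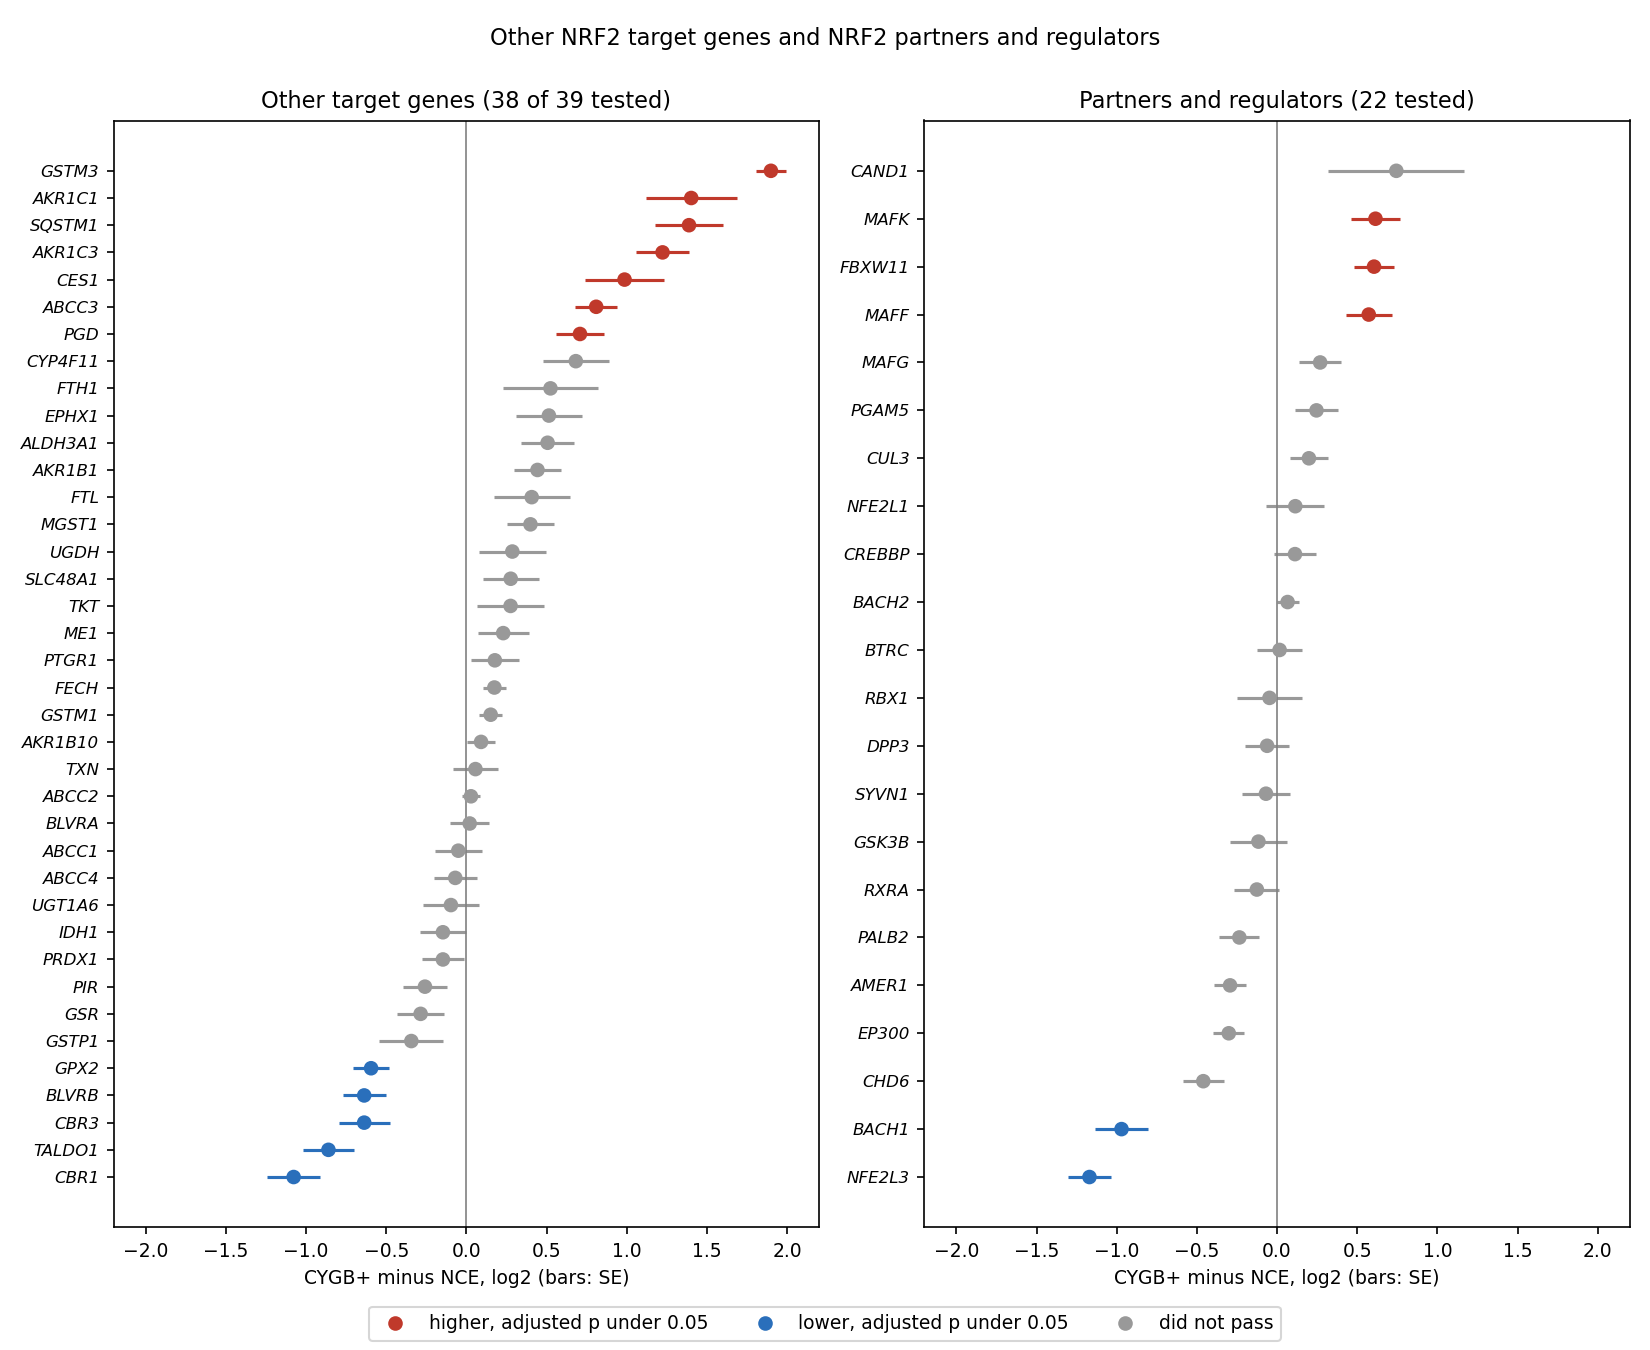
CYGB+ minus NCE log2 difference (x axis, points with bars of 1 SE) of 38 of the 39 tested further targets (left) and the 22 partners and regulators (right), ordered by size; red points were called higher, blue points lower, and grey points did not pass. GSTM3 at 1.90 and CBR1 at -1.08 mark the ends on the left, and NFE2L3 at -1.17 and BACH1 at -0.97 are the lowest on the right.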

How the data were processed

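RNA of PE/CA-PJ41 cells was measured on 15 Agilent SurePrint G3 arrays. Per the file headers, the deposited scanner files hold intensity values from Agilent Feature Extraction 10.7.3.1 under a 2-colour protocol, without normalisation. The methods used here took the green median intensity (the mean was planned but is not a column), normexp correction with offset 50 against the local background, and quantile normalisation (limma 3.58.1, R 4.3.3). Control spots and outlier spots were left out, spots of a probe and arrays of a replicate were averaged, and differences were fitted with lmFit and eBayes with a trend. Probes well above background on at least 50% of the arrays of a group were tested, 22832 of 42405, with Benjamini-Hochberg adjustment. The number of arrays limits the precision. The script was tested on simulated data.

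The authors also deposited a table of processed values for 15031 of these probes on a natural log scale, judged from a slope of 0.67 table units per log2 unit (r = 0.976). Its values were relative to a baseline near each probe's CYGB+ median, and the direction was that of the scanner files. Column medians ran from -0.161 to 0.182. The table, divided by the natural log of 2, served as an alternative.

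The methods and the labels differ on the dyes. By the methods control RNA carried Cy5, read in red, and CYGB+ RNA carried Cy3, read in green. The labels name Cy3 for every sample, and the green channel was used on that basis. If the methods hold, green on the NCE arrays would not be the control cells. In red the arrays of the groups overlapped. NQO1 ran from 8.57 to 10.89 in NCE and from 9.52 to 10.17 in CYGB+. HMOX1 ran from 8.54 to 9.78 and from 8.99 to 10.41, and TXNRD1 from 8.05 to 10.54 and from 8.10 to 10.61. RefSeq accessions named 25422 of 27310 probes. Same-numbered replicates of the groups deviated together (correlations of 0.206, 0.228 and 0.299), but so did some differently numbered ones (0.168, 0.211 and 0.286, the others -0.403 to -0.493). This pairing is a hint from the data, since the labels tie the numbers to no shared occasion, and blocked values stand beside the results they change. The replicates are called biological and their RNA was taken on separate occasions. Nothing states that they were separately grown cultures, so p-values measure the spread between these samples. Genes other than the 10 were named when called with a difference of at least 1, or the 6 largest called per list, and CYP4F11, SLC48A1, MGST1, ABCC3, PGD, TALDO1, BLVRB, CBR3, GPX2 and those not called were added after their values were seen. One tested gene of the target list is not reported here. The members and lists were chosen with earlier results of these data known.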

Additional observations from a re-analysis of the deposited data

Results flagged for a closer look

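Among 18 sets of arrays checked (each gene in each group) 2 held an array far from the others, where chance gives about 1 in 20. For KEAP1 the lowest CYGB+ array was replicate 1 array 1 at 9.70, with the nearest at 9.95. For HMOX1 the lowest CYGB+ array was replicate 1 array 2 at 8.30, with the nearest at 8.44, still above the highest NCE array at 7.65. The red channel, whose sample the labels do not name, was well above background for at least 55.62% of spots on each of the 15 arrays. It entered no test, and its values are given only for GCLM, NQO1, HMOX1 and TXNRD1.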

How the results depend on the processing

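The NQO1, HMOX1 and TXNRD1 differences kept their sign under all 20 alternatives and stayed called except within slide 2 and, for NQO1, under the methods' t-test (adjusted p = 0.0527). Their size depended on the processing. For HMOX1 it was 1.167 with a normexp offset of 16, 1.374 with the scanner software's processed signal and 1.394 in the authors' deposited values. For NQO1 these were 1.019, 1.219 and 1.188, and for TXNRD1 1.133, 1.222 and 1.326. Leaving out 1 replicate gave 0.921 to 1.077 for HMOX1, 0.861 to 1.051 for NQO1 and 0.929 to 1.125 for TXNRD1. Over the alternatives adjusted p ran from 1.04e-05 to 0.237 for NQO1, from 5.75e-07 to 0.154 for HMOX1 and from 8.86e-06 to 0.202 for TXNRD1. GCLM reversed to 0.188 in the array-level fit with slide and to 0.094 within slide 2, and passed the threshold under 6 alternatives. CYGB reversed to 0.047 in the authors' value table, 0.201 without CYGB+ replicate 1 and 0.008 without NCE replicate 2, and none of its values passed (leave-one-out range -0.329 to 0.201). Of the 8 genes, 3 were called in the main setting, 5 with 75th percentile scaling, in the array-level fit and without the array that stands apart (chosen after seeing the data), 6 with the mean of a gene's probes and with the replicate block, and 0 within slide 2 (2421 probes at an unadjusted p under 0.05). Leaving out 1 replicate gave 3 to 5, the 5 without CYGB+ replicate 1. With the mean of a gene's probes, 2170 of all 13049 genes tested were called. Each of the 8 genes has 1 probe, so its difference is unchanged there. Only the set of features fitted and adjusted over differs. All probes called numbered 2476, and 1566 with 75th percentile scaling, 4879 in the array-level fit, 636 with slide added, 1312 in the value table, 589 by the methods' t-test (5505 unadjusted), 1484 with no filter on dim probes, 3816 with the replicate block, 47 within slide 2 and 4248 without the array that stands apart. Without 1 replicate they ran from 630 (NCE replicate 2) to 2427, with 684 without NCE replicate 3, 1234 without NCE replicate 1 and 1517 without CYGB+ replicate 3. Other targets called were 12, against 6 with slide, 1 by the methods' t-test, 1 within slide 2 and 21 without the array that stands apart, and 5 (without NCE replicate 2; 6 without replicate 3 and 7 without replicate 1) to 14 without 1 replicate. Regulators called were 5, against 8 in the array-level fit, 1 with slide, 1 by the methods' t-test, 3 with no filter and 0 within slide 2, and 1 (without NCE replicate 2 or 3; 2 without NCE replicate 1 or CYGB+ replicate 3, 3 without CYGB+ replicate 1) to 5 without 1 replicate. The causes were not tested. The replicate block changed no other call of the 8 genes than GCLC, GCLM and SLC7A11. NFE2L2 and GSTM3 in NCE are limited by signal over background. GSTM3 is in the counts of other targets called in the main setting, with slide and without the array that stands apart.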
